A study of Mus musculus with 4 samples.

Results

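Microglia of the sham spinal cord were compared between a standard dissociation and a dissociation with actinomycin D (ActD). ActD is an inhibitor of RNA synthesis, added so that cells cannot make new transcripts while the tissue is cut, digested and sorted. Microglia were chosen by their transcripts. A barcode was kept with at least 600 detected genes, at most 10% mitochondrial UMIs and at least 1 UMI of 4 or more of 9 markers (Tmem119, P2ry12, P2ry13, Sall1, Siglech, Gpr34, Olfml3, Sparc and Slc2a5), and was left out with any UMI of Cd3e, Cd79a or S100a8. A unique molecular identifier (UMI) marks 1 captured RNA molecule. The rule kept 1731 of 9266 sham barcodes, 788 from the standard library and 943 from the ActD library, out of 31660 barcodes in the whole series.

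The series holds 4 libraries of CD45+ cells of the mouse spinal cord, 1 per condition. Both sham groups were 3-month-old C57BL/6 mice of both sexes and differed by label in the dissociation alone. The labels call their spinal cords healthy. The authors call the groups sham, and describe laminectomy without contusion in sham mice. The other libraries were from 3 and 14 days post injury (dpi) and were dissociated with ActD. How many mice entered each of the sham libraries is not given in the sources used here. Since each protocol had 1 library, no spread between replicates was known and no test was made, and every interval below is a 95% interval that covers counting error only.

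Microglia are the resident macrophages of the central nervous system. Their processes survey the tissue through purinergic and chemokine receptors, and they answer injury, ATP or microbial products within minutes by transcribing immediate early genes and then cytokines. The transcription factors that start this response (SRF, CREB and NF-kB) are present before the stimulus, so the first genes need no new protein. Many of the first products, such as the phosphatase DUSP1, the inhibitor IkBa and the RNA-binding protein tristetraprolin, shut the response down again.

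The selection differed between the libraries. Among cells that passed the gene and mitochondrial filters, at least 4 markers were found in 3620 of 5736 standard cells (63.1%, interval 61.8 to 64.4) and in 1835 of 2203 ActD cells (83.3%, interval 81.7 to 84.8). Of these, 2735 standard cells (75.6%) and 875 ActD cells (47.7%) carried an S100a8 UMI and were left out, so the microglia analysed were 13.7% and 42.8% of the filtered cells. The cells left out by the 3 genes had median depths of 8505 and 10335 UMIs, against 6798 and 9192 UMIs in the cells kept. The kept cells summed to 5158736 UMIs in the standard and 9201704 UMIs in the ActD library, with medians of 2199.5 and 3097 genes and 2.60% and 2.32% mitochondrial UMIs. Thinned to 2000 UMIs per cell, the medians were 951 and 1119 genes. The 4 defining markers Tmem119, P2ry12, Sall1 and Siglech were found in 96.3%, 96.1%, 54.6% and 94.7% of the standard and in 96.3%, 98.6%, 82.3% and 97.7% of the ActD microglia. At least 3 of 7 border macrophage markers were found in 1 standard and 35 ActD cells. The libraries shared 3 barcodes and no microglial barcode. The standard matrix carries software version 3.0.1 and the ActD matrix 3.1.0, so the protocol and the version cannot be told apart.

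Promoter sequences are shown for 7 genes that stood at the ends of the comparison or hold the motifs counted further down, each as the 180 bases before the RefSeq start on GRCm38.p6, read 5′ to 3′ on the strand of the gene. Capitals mark the motif letters. In Nfkbia (chr12:55492648-55492827, minus strand) they mark a kappaB motif, in Cxcl2 (chr5:90903719-90903898, plus strand) 2 overlapping kappaB motifs, and in Tnfaip3 (chr10:19015411-19015590, minus strand) TGANTCA and 2 kappaB motifs. In Dusp1 (chr17:26508473-26508652, minus strand) they mark TGACGTCA, the full CREB site, and in Gadd45b (chr10:80929911-80930090, plus strand) TATAAA. In Ifit3 (chr19:34583349-34583528, plus strand) they mark 2 copies of the core of the interferon-stimulated response element (ISRE), and TGANTCA, and in Isg15 (chr4:156200819-156200998, minus strand) 3 overlapping copies of that core on the opposite strand.
Nfkbia: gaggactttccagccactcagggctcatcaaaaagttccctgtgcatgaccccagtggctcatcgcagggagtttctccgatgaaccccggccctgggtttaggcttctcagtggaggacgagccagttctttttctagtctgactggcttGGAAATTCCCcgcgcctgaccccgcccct
Cxcl2: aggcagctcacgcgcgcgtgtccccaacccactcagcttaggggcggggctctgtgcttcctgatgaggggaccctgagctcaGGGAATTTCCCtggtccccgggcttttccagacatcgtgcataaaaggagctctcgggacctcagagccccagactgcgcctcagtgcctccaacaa
Tnfaip3: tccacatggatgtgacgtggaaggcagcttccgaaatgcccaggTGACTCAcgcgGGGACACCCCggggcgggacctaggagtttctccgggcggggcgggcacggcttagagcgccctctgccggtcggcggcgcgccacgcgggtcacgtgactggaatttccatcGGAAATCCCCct
Dusp1: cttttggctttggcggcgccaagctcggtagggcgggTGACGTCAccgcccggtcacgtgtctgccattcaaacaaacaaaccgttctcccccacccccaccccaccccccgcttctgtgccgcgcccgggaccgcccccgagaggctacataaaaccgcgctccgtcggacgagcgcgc
Gadd45b: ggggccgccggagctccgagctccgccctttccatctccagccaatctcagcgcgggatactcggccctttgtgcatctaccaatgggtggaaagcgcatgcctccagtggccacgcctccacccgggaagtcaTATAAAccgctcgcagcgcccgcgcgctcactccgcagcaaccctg
Ifit3: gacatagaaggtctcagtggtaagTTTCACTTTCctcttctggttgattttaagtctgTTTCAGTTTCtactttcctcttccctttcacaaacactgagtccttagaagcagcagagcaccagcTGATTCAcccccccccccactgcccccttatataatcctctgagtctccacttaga
Isg15: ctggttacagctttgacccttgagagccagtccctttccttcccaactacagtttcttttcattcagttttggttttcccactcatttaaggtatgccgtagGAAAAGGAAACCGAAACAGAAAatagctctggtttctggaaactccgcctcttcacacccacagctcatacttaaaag

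UMIs were summed over the microglia of each library and scaled to counts per 1000000 UMIs (CPM). A gene needed 100 UMIs over both libraries to be compared, which 8790 genes had, and their median log2 ratio, standard over ActD, was -0.52. Genes are therefore called past 2-fold relative to this median gene, above a log2 ratio of 0.48 or below -1.52. By this count 639 genes were higher with the standard protocol (7.27% of the genes) and 452 genes were lower (5.14%). On plain CPM without centring, 390 were higher and 1609 lower. The 639 higher genes held 224095 CPM in the standard and 58830 CPM in the ActD microglia. Leaving out the Fos, Jun, Egr and Ier families, 627 genes held 191458 and 58155 CPM, so most of the additional transcripts lay outside the classical immediate early families. The 452 lower genes held 4596 CPM and 18610.4 CPM. Past 16-fold, 92 genes were higher and 29 lower. Without the exclusion by Cd3e, Cd79a and S100a8, 3620 and 1835 cells entered. Of 11127 genes then compared, 1164 were higher (10.5%) and 694 lower (6.24%).

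**Figure D1:**
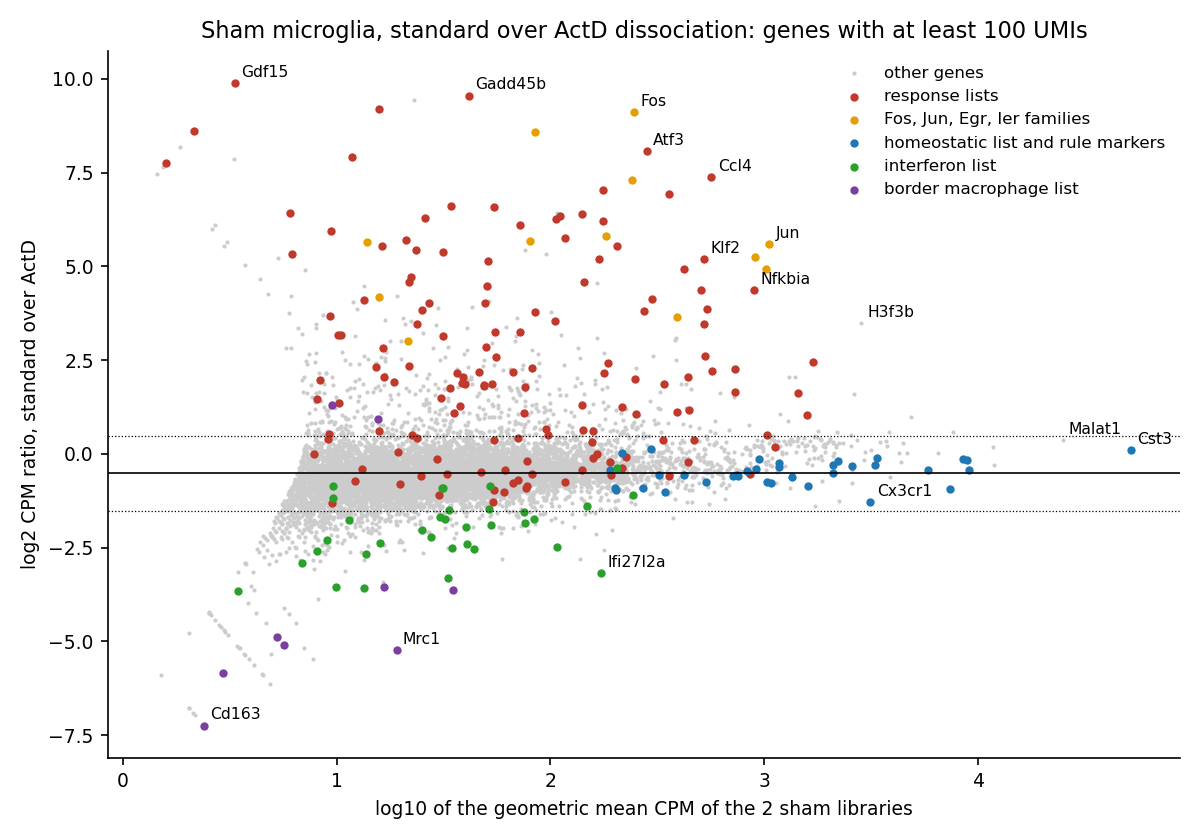
Each point is 1 gene with at least 100 UMIs; the horizontal axis is the log10 geometric mean CPM of both sham libraries and the vertical axis the log2 CPM ratio, standard over ActD, with a solid line at the median gene (-0.52), dotted lines 2-fold to either side and counts of 0 drawn at 3 UMIs. Response genes reach 9.89, homeostatic genes stay between the dotted lines, and most interferon and border macrophage genes lie below them.

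The Fos, Jun, Egr and Ier families are given for scale only. All 12 of 15 members that passed the UMI minimum were past 2-fold higher, and the families summed to 32653 CPM in the standard and 677 CPM in the ActD microglia. Fos stood at 5817 and 10.4 CPM, and Jun at 7347 and 152 CPM. Outside them, 9 lists of inducible genes were described, of whose 173 members 145 passed the minimum and 28 did not. A gene that passed only through the library in which it was high had to differ, so these counts are descriptions. Of these 145 genes, 105 (72.4%) were past 2-fold higher and none was past 2-fold lower, beside 7.27% and 5.14% of all genes. The same shares of all genes stand beside the count of each single response list below. The 9 lists summed to 80677 CPM and 15534 CPM, a log2 ratio of 2.38, and their median member lay at 2.0 beside -0.52 over all genes.

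Inducible transcription factors were the most uniform of these lists, with 20 of 22 members past 2-fold higher and a median log2 ratio of 3.65. Atf3, a stress-induced repressor of the ATF/CREB family, stood at 4645 CPM in the standard and 17.2 CPM in the ActD microglia, a log2 ratio of 8.08 (interval 7.85 to 8.31). Maff, a small Maf factor, stood at 183 and 0.761 CPM, from 946 and 7 UMIs. The orphan nuclear receptor Nr4a1 stood at 337 and 3.48 CPM. Each of these 3 genes was at under 20 CPM with ActD. The Krüppel-like factors were more abundant. Klf2, which restrains NF-kB in myeloid cells, stood at 3169.6 and 86.3 CPM. Klf4 stood at 1002 and 12.3 CPM, and Klf6 at 2066 and 143 CPM. Id2, an inhibitor of E proteins, stood at 708 and 29.3 CPM, and Per1 of the circadian clock at 199.7 and 12.3 CPM. The 2 members that were not past 2-fold were Cebpd, with 151 and 165 CPM, and Bcl6, with 27.5 and 20.4 CPM. Cebpb, the paralog of Cebpd, stood at 1304 and 212 CPM, so members of 1 family differed.

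Outside every list, H3f3b had the largest difference in abundance of any gene. It encodes the replacement histone H3.3, which is laid down at genes during transcription. H3f3b stood at 9516 CPM in the standard and 851 CPM in the ActD microglia, an 11.2-fold difference (log2 ratio 3.48, interval 3.45 to 3.52). Gem, a small GTPase, stood at 603 and 0.869 CPM, and Adamts1, a secreted metalloproteinase, at 994 and 11.6 CPM. Tmem88, a membrane protein that restrains Wnt signalling, stood at 50 CPM against 0.217 CPM, which was 2 UMIs (log2 ratio 7.85, interval 5.98 to 10.90). With ActD, Gem and Tmem88 had 8 and 2 UMIs and Adamts1 107. Abundant genes of the cytoskeleton and of iron storage were also higher by a smaller ratio. Actg1 (cytoplasmic gamma actin) stood at 2829 and 683 CPM, Rhob at 2682 and 644 CPM, Ftl1 (ferritin light chain) at 4565 and 1519 CPM and Fth1 (ferritin heavy chain) at 6787 and 3466 CPM. Actb, often used as a reference gene, was past 2-fold relative to the median gene at 9355 and 6293 CPM, while its plain ratio was 1.49-fold.

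Genes that feed back on kinase and cytokine signalling were higher in 10 of 13 members, with a median of 3.54. Dusp1, the nuclear MAP kinase phosphatase, stood at 2021 CPM in the standard and 15.4 CPM in the ActD microglia (log2 ratio 7.03, interval 6.79 to 7.28). Its paralogs Dusp5, at 56.0 and 0.652 CPM, Dusp8, at 74.0 and 1.20 CPM, and Dusp2, at 112 and 2.39 CPM, had log2 ratios of 6.42, 5.95 and 5.55. Dusp6, the cytoplasmic ERK phosphatase, did not follow them, with 175 and 205 CPM. Socs3, the inhibitor of gp130 and JAK signalling, stood at 1404 and 30 CPM, and Rgs1, which ends G protein signals, at 1021 and 27.8 CPM. Rgs2 stood at 535 and 413 CPM and was not past 2-fold. The contrast of Dusp1 with Dusp6 and of Rgs1 with Rgs2 shows paralogs on both sides of the threshold.

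Messenger RNA decay factors were higher in 8 of 9 members. Zfp36 encodes tristetraprolin, which binds AU-rich elements of cytokine transcripts, and stood at 2311 and 112 CPM (log2 ratio 4.37, interval 4.28 to 4.47). Btg2 stood at 1722 and 158 CPM, Btg1 at 1222 and 267 CPM, and Zc3h12a (regnase-1, an endonuclease for cytokine transcripts) at 168 and 17.8 CPM. Zfp36l2 was the member that was not past 2-fold, with 293 and 438 CPM. The family thus divided, since the remaining member Zfp36l1 stood at 672 and 297 CPM.

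The NF-kB system was higher in 14 of 16 members, with a median of 2.09. Its inhibitors led the list. Nfkbia (IkBa), which holds NF-kB in the cytoplasm and carries the motif shown above 29 to 20 bases before its start, stood at 4077 CPM and 197 CPM (log2 ratio 4.37, interval 4.30 to 4.44). Nfkbiz stood at 1514 and 20.4 CPM, Tnfaip3 (A20, a ubiquitin-editing inhibitor) at 862 and 15.9 CPM, and Nfkbid at 204 and 4.89 CPM. The subunits themselves differed less. Rel stood at 499 and 125 CPM, Nfkb1 at 333 and 141 CPM, and Rela at 119 and 75.5 CPM, with log2 ratios of 2.0, 1.24 and 0.66. Cyld, a deubiquitinase that also restrains the pathway, stood at 39.0 and 76.3 CPM, so not every inhibitor was higher.

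Secreted signals were among the largest ratios. Of 11 chemokines 9 were past 2-fold higher. Ccl4 and Ccl3, which attract monocytes and lymphocytes, stood at 7309 and 4003 CPM in the standard and at 43.9 and 32.5 CPM in the ActD microglia, ratios of 166 and 123. Both were high in the standard and low in the ActD library by over 100-fold. Cxcl2, a neutrophil attractant, stood at 379.6 and 0.652 CPM, from 1958 and 6 UMIs, and Cxcl10 at 231 and 2.93 CPM. Ccl12, a mouse CCR2 ligand, stood at 407 and 475 CPM, and Ccl6 at 158 and 233 CPM, so these members were not past 2-fold in the pooled sums. By sex Ccl12 moved in opposite directions, with 526 CPM in standard and 98.9 CPM in ActD male cells and 355 and 802 CPM in female cells (the calls by sex are described with the interferon list).

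Cytokines and growth factors were higher in 8 of 12 members. Tnf stood at 596 CPM and 8.69 CPM (log2 ratio 6.10, interval 5.78 to 6.44), Il1b at 532 and 5.54 CPM and Il1a at 1257 and 71.3 CPM. Gdf15, a stress-induced member of the TGF-beta superfamily, had the largest ratio of any gene with at least 200 UMIs, with 103 CPM from 531 UMIs against 1 UMI (log2 ratio 9.89, interval 7.40 to 15.19). Csf1 stood at 224 and 23.4 CPM, Osm at 94.4 and 6.63 CPM and Hbegf at 39.4 and 0.978 CPM. The other 4 were Tgfb1 at 383 and 295 CPM, Il18 at 26.9 and 39.6 CPM, Il6 at 9.50 and 15.8 CPM and Il16 at 34.5 and 83.8 CPM. Il6, often measured as a readout of microglial activation, was therefore not among the genes that were higher.

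Stress and cell death genes were higher in 14 of 20 members. Gadd45b, induced by stress and by NF-kB, stood at 1142 CPM and 1.52 CPM, from 5890 and 14 UMIs (log2 ratio 9.55, interval 8.80 to 10.42). Ppp1r15a (GADD34), the phosphatase subunit that lifts the block on translation, stood at 1286 and 15.2 CPM. Cdkn1a (p21) stood at 315 and 22.7 CPM, and Mcl1, a short-lived survival factor, at 1589 and 335 CPM. The DNA damage gene Ccng1 stood at 14.9 and 26.2 CPM, and Ddit4 at 6.01 and 15 CPM, so the list was not uniform.

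Heat shock and ubiquitin genes divided by member, with 11 of 25 past 2-fold higher (44.0%, beside 7.27% of all genes) and a median of 0.19. The inducible chaperones were higher, with Hspa1a at 153 and 2.93 CPM, Hspb1 at 114 and 4.35 CPM and Dnajb1 at 142 and 41.1 CPM. Ubb, a polyubiquitin gene, stood at 2280.2 and 1112 CPM. Constitutive chaperones were not past 2-fold, with Hsp90ab1 at 1195 and 1047 CPM and the mitochondrial Hspd1 and Hspe1 at 90.3 and 151 CPM and at 189 and 248 CPM. Within the endoplasmic reticulum, Hspa5 (BiP) stood at 2542 and 825 CPM while its partner Hsp90b1 stood at 709 and 1034 CPM.

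Surface and enzyme genes of activated myeloid cells were higher in 11 of 17 members. Cd83, a costimulatory surface protein, stood at 2329 and 76.8 CPM, Ccrl2, a chemerin-binding receptor, at 934 and 12.2 CPM, and the adhesion molecule Icam1 at 1027 and 73.9 CPM. Ptgs2 (cyclooxygenase 2) stood at 42.3 CPM from 218 UMIs against 1 UMI (log2 ratio 8.60, interval 6.11 to 13.91). Cd14 and Tlr2, which sense bacterial products, stood at 1284 and 412 CPM and at 221 and 88.9 CPM. Cd86 stood at 165 CPM in both libraries, and Tlr4 at 20.5 and 43.7 CPM. The activation markers Cd83 and Cd86 thus lay on different sides of the threshold.

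**Figure D2:**
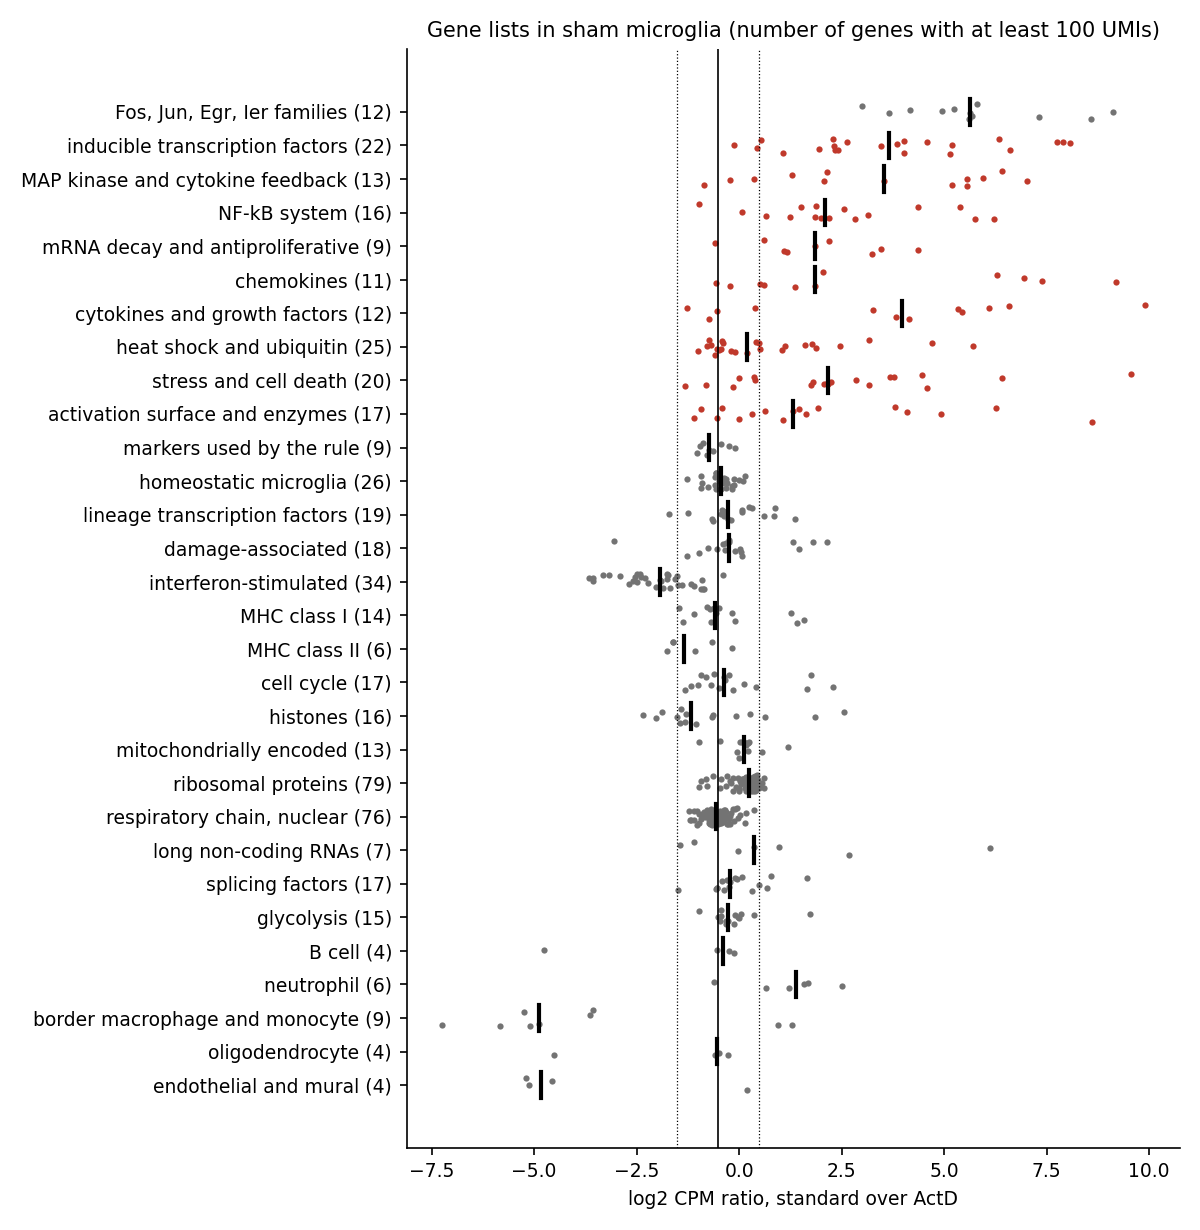
Each point is 1 gene with at least 100 UMIs, placed by its log2 CPM ratio (standard over ActD), in 30 gene lists; the thick bar is the list's median, the solid line the median gene at -0.52 and the dotted lines 2-fold to either side. The 9 response lists (red) have medians from 0.19 to 3.99, homeostatic genes lie close to the median gene, and interferon-stimulated genes lie at a median of -1.92.

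The difference was found in nearly all of the cells. After thinning every cell to 2000 UMIs (714 standard and 901 ActD cells, with 74 and 42 shallower cells left out), a standard microglial cell held a median of 159 UMIs of the 9 response lists (5th to 95th percentile 85.9 to 239), and an ActD cell a median of 30 UMIs (18.0 to 45). Of the ActD cells, 2 (0.222%) reached the 5th percentile of the standard cells. In the other direction, 27 standard cells (3.78%) lay at or below the 95th percentile of the ActD cells, 45 UMIs. These 27 cells had a median depth of 2662 UMIs and 5.19% mitochondrial UMIs, against 7301 UMIs and 2.46% in the 687 others, and a median of 6.00 against 8.0 rule markers. UMIs of the Fos, Jun, Egr and Ier families were at 0 in 294 of the ActD cells (32.6%) and in 7 of the standard cells (0.980%).

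**Figure D3:**
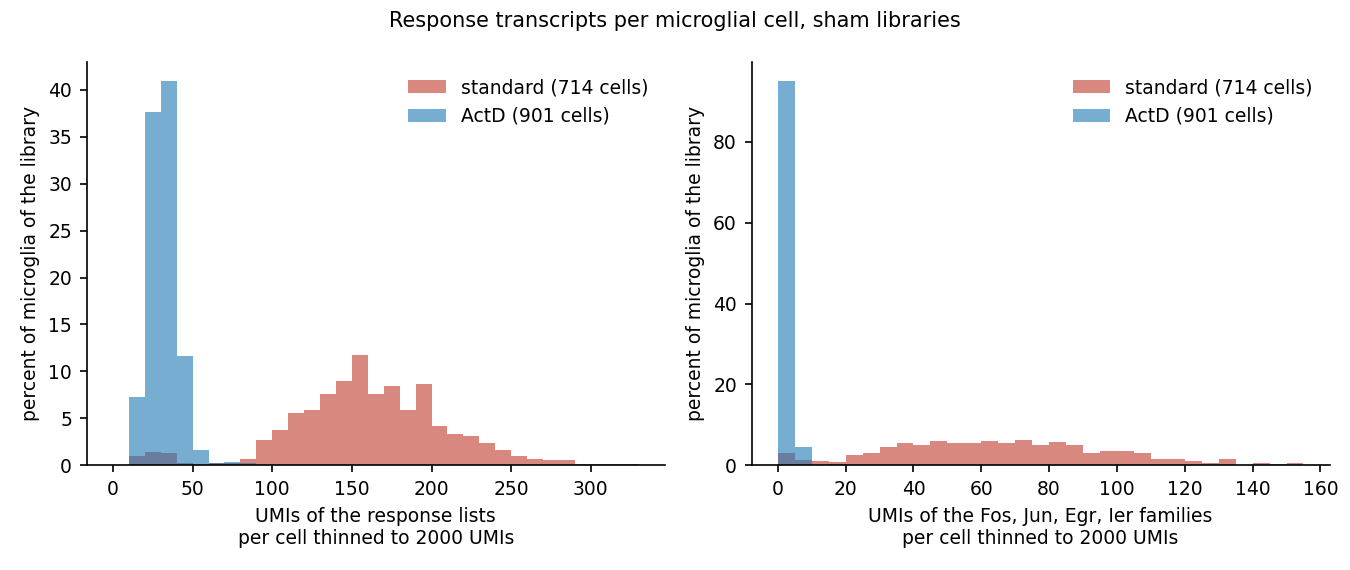
Histograms of the UMIs of the 9 response lists (left) and of the Fos, Jun, Egr and Ier families (right) in single microglia thinned to 2000 UMIs, as a percent of the microglia of each library. The ActD cells form a narrow peak around 30 response UMIs and the standard cells a broad one around 159, with 27 standard cells at or below 45 UMIs, the 95th percentile of the ActD cells.

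Shares of cells gave the same order for single genes. Ccl4 was found in 88.1% of thinned standard microglia (interval 85.5 to 90.4) and in 2.77% of ActD microglia (1.80 to 4.07), and Gadd45b in 69.9% (66.4 to 73.2) and 0.111% (0.00281 to 0.617). Il1b and Cxcl2 were less frequent, at 22.7% and 22.5% of the standard and 0.666% and 0.111% of the ActD microglia. Without thinning, Ccl4 was found in 92.9% and 6.36% of the cells. RNA free in the suspension also enters droplets. In B cells of the standard library, with a median depth of 4150.5 UMIs against 6798 in its microglia, Ccl4 was found in 24.3%, Gadd45b in 16.5% and Il1b in 2.0% of thinned cells. The microglial shares were above these values for each of the 3 genes. The B cells were chosen with under 2 of the 9 rule markers, so cells holding more microglial RNA were left out of them. With ActD the B cell shares of Ccl4 and Gadd45b were 1.69% (interval 0.0429 to 9.09) and 5.08% (1.06 to 14.1), from 1 and 3 of 59 cells. These shares, from few cells, were close to or above the microglial ones.

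Genes of microglial identity differed little by comparison. Of 26 homeostatic genes that the rule did not use, none was past 2-fold in either direction, and their median of -0.44 was close to the median gene. Cst3 (cystatin C), the gene with the most UMIs, stood at 53938 and 50364 CPM, C1qa at 8385 and 9402 CPM and Csf1r, the receptor microglia need for survival, at 2962 and 3665 CPM. The lowest ratio of the list was that of Cx3cr1, the fractalkine receptor, with 2016 CPM in the standard and 4899 CPM in the ActD microglia (log2 ratio -1.28, interval -1.31 to -1.25). Ly86 (MD-1), outside the list, stood at 1072 and 2790.5 CPM. On plain CPM, 1 of the 26 genes was past 2-fold lower. The 9 markers of the rule, which chose the cells, had log2 ratios between -1.03 and -0.10 and are given as a description only.

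Lineage transcription factors were past 2-fold higher in 4 of 19 members (21.1%) and lower in 1 (5.26%), beside 7.27% and 5.14% of all genes. The share lower was thus near that of all genes. Stat3, which carries gp130 signals, stood at 283 and 109 CPM, Runx1 at 369 and 199.7 CPM, Cebpa at 332 and 184 CPM and Zeb2 at 686 and 450.0 CPM. Maf (c-Maf) was the member that was lower, with 206 and 675 CPM (log2 ratio -1.71, interval -1.80 to -1.61). Spi1 (PU.1) stood at 454 and 432 CPM. Of 18 damage-associated genes, 4 were higher (22.2%) and 1 was lower (5.56%, also near the share of all genes). The 4 higher genes were all at low levels. Spp1 stood at 29.7 and 10.9 CPM, Fabp5 at 29.1 and 8.37 CPM, Lgals3 at 30.8 and 12.4 CPM and Lilrb4a at 18.8 and 4.24 CPM. Igf1 was lower, at 2.71 and 22.6 CPM, and this was lost with at least 6 rule markers per cell (0.01 relative to the median gene). Apoe stood at 1439 and 3471 CPM and was not past 2-fold relative to the median gene.

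Among the lists of microglial and immune function, interferon-stimulated genes had the most members that were lower. Of 34 members 24 were past 2-fold lower with the standard protocol (70.6%, beside 5.14% of all genes) and none higher. The list summed to 1022 CPM in the standard and 3395 CPM in the ActD microglia. Ifi27l2a stood at 57.6 and 521 CPM (log2 ratio -3.18, interval -3.35 to -3.01), Rtp4 at 10.5 and 105 CPM, Oasl2, a sensor of the OAS family, at 3.88 and 46.1 CPM and Zbp1, a sensor of Z-form nucleic acid, at 2.91 and 34.2 CPM. Slfn2, at 179.5 and 235 CPM, and Isg15, at 38.4 and 70.2 CPM, were not past 2-fold in the pooled sums.

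This difference divided by the sex of the cells. Female cells were those in which Xist was found and no Y-linked gene was, of 4 such genes read, and male cells were the reverse case, which gave 243 male and 326 female standard microglia and 361 male and 394 female ActD microglia. In female cells the interferon list summed to 851 CPM (interval 814 to 889.5) with the standard protocol and to 5478 CPM (5406 to 5549.5) with ActD, and 30 of 32 members were past 2-fold lower, beside 5.08% of all genes in female cells. In male cells it summed to 1176 CPM (1126 to 1229) and 1255 CPM (1219 to 1293), with 3 of 19 members past 2-fold higher and none lower, beside 7.61% and 3.85% of all genes in male cells. The female ActD cells stood apart from the other 3 groups. Rtp4 stood at 7.75 CPM in female and 11.1 CPM in male standard cells, at 20 CPM in male ActD cells and at 192 CPM in female ActD cells. Ifi27l2a gave 65.0, 46.7, 84.1 and 890.1 CPM in the same order. Slfn2, which did not pass in the pooled sums, stood at 169.6, 185, 76.1 and 394 CPM. Thinned to 2000 UMIs, 2 of 378 female ActD cells (0.529%) held no UMI of the list, against 18.6% of male ActD cells, 24.2% of female and 27.0% of male standard cells. The level was thus shared by nearly all of the female ActD cells and was not that of a small subset.

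The same division was found in other cells of the ActD sham library. B cells, called by at least 3 of 5 markers and under 2 of the 9 rule markers, summed to 9274 CPM in 34 female and 1015 CPM in 14 male cells. Neutrophils summed to 11517 CPM in 35 female and 2734 CPM in 15 male cells, and border macrophages to 12233 CPM in 42 female and 5348 CPM in 24 male cells. In the standard library the order was the opposite in B cells, with 1501 CPM in 572 female and 2418 CPM in 22 male cells. It was also the opposite in neutrophils, with 2205 CPM in 274 female and 5174 CPM in 39 male cells. Border macrophages there summed to 4394 CPM in 60 female and 4461 CPM in 31 male cells. Microglia chosen by the same rule at 14 dpi summed to 7095 CPM in 98 female and 2227 CPM in 92 male cells. At 3 dpi they summed to 1937 CPM in 23 female and 1982 CPM in 83 male cells. At both times most cells with at least 4 markers had been left out for an S100a8 UMI (counts are given further down). The libraries with the higher female level are those that carry software version 3.1.0, whose part in this was not tested. Since the mice behind each library are not given, sex cannot be told apart from the individual mice. Over all response lists, 89 of 124 members were past 2-fold higher in male and 93 of 130 in female cells, beside 7.61% and 7.25% of all genes. Single members could still divide, as Ccl12 did, and the chemokine list had a median log2 ratio of 3.34 in male and 1.32 in female cells.

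**Figure D4:**
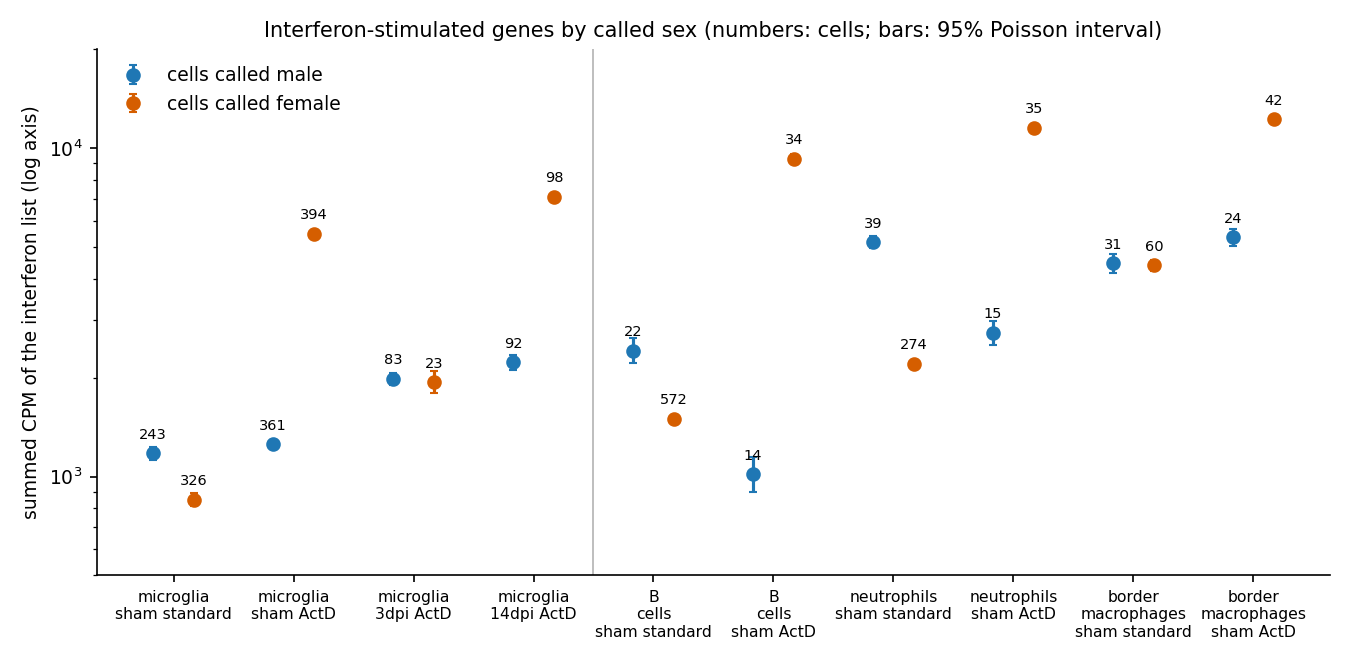
Summed CPM of the interferon list (log axis) in cells called male (blue) or female (orange), with 95% Poisson intervals and the number of cells above each point, for microglia of the 4 libraries (left of the line) and 3 other cell classes of the sham libraries (right). Female cells of the ActD sham library lie above male cells in all 4 classes, as do female microglia at 14 dpi, while female and male microglia of the standard sham library stand at 851 and 1176 CPM.

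Antigen presentation genes followed in part. Of 14 MHC class I genes none was past 2-fold lower, with B2m at 1969 and 3354 CPM and H2-T23 at 122 and 338 CPM. H2-T23 stood at 449 CPM in female and 235 CPM in male ActD cells, and at 116 and 124 CPM in standard cells. The near-identical genes H2-Q4, H2-Q6 and H2-Q7 were past 2-fold higher, but how reads of such copies were assigned was not tested. MHC class II genes were lower in 3 of 6 members, beside 5.14% of all genes. H2-Aa stood at 54.9 and 186 CPM, H2-Ab1 at 72.7 and 221 CPM and H2-Eb1 at 52.9 and 160.3 CPM. This direction rested on the 35 ActD cells and 1 standard cell with border macrophage markers. Without them the 3 genes were higher with the standard protocol, by 2.66, 1.87 and 2.94 relative to the median gene. In standard cells H2-Aa stood at 6.42 CPM in male, 48.2 CPM in female and 24.8 CPM in cells of neither call, each below the pooled value. H2-Ab1 stood at 19.3, 68.9 and 46.4 CPM, also below it. The rest lay in 21 standard cells with UMIs of both Xist and a Y-linked gene, as cells caught together can have. The part of these 21 cells was not tested.

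Markers of other cells also differed. Of 9 border macrophage and monocyte genes, 7 were past 2-fold lower with the standard protocol and 2 higher, beside 5.14% and 7.27% of all genes. The list summed to 58.3 and 439 CPM. Mrc1 (CD206) stood at 3.1 and 117 CPM, and Cd163 at 1 UMI against 29.6 CPM. Other genes at the low end are known from the meninges and vessels. Vtn and Igfbp2 had no UMI in the standard microglia and 41 and 34.8 CPM with ActD, at least 70.5-fold and 59.8-fold lower by the limit of 3 counts, and Retnla (RELM-alpha) was at least 58.5-fold lower. Aebp1, of fibroblasts, stood at 1 UMI against 24.2 CPM, and the complement gene C4b at 1.16 and 51.4 CPM. Prss34, a mast cell and basophil protease, stood at 1.16 and 42.4 CPM. Relative to the median gene, and with the border macrophage cells left out, the Aebp1 log2 ratio was -6.49 and the Prss34 log2 ratio -4.73. C4b also stayed past 2-fold lower in this setting. Cells with under 3 border macrophage markers stayed in, and their part in these ratios was not tested. Without the exclusion by Cd3e, Cd79a and S100a8, Prss34 was not lower (given further down). Of 6 neutrophil genes 5 were past 2-fold higher, and the list summed to 407 and 148 CPM although S100a8 was at 0 by the rule. S100a9, the partner of S100a8, stood at 249 and 82.5 CPM. Gzma, of cytotoxic lymphocytes, stood at 31.2 CPM from 161 UMIs against 1 UMI (log2 ratio 8.17, interval 5.67 to 13.48). Of 4 endothelial and mural genes 3 were past 2-fold lower, as was 1 of 4 B cell genes. The B cell gene was Igha, with 0 and 144 UMIs, while Ighm stood at 207 and 245 CPM. The part of these cells in the other results was not tested. With the cells holding border macrophage markers left out, 105 of 144 response genes were past 2-fold higher and 21 of 33 interferon genes lower. The shares of all genes were then 7.34% and 4.66%.

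Among genes of general cell function, 76 nuclear genes of the respiratory chain included none past 2-fold in either direction, with a median of -0.57. Of 79 ribosomal protein genes 4 were past 2-fold higher, a share of 5.06% that is near the 7.27% of all genes, and their median of 0.23 lay above the median gene. Of 13 mitochondrially encoded genes 2 were higher (15.4%), mt-Nd4l at 495 and 215 CPM and mt-Nd5 at 713 and 488 CPM. Glycolysis genes were past 2-fold in 1 of 15 members (6.67%, also near the share of all genes), Pfkfb3, which makes the activator of phosphofructokinase and stood at 318 and 95.6 CPM, while Gapdh stood at 629.6 and 792 CPM. The nuclear long non-coding RNA Neat1, of paraspeckles, stood at 451 and 70.5 CPM, and Malat1 at 28344 and 21926 CPM. Mir155hg, the host transcript of miR-155, had 116 UMIs in the standard and none in the ActD microglia, at least 69-fold higher. Splicing factors were higher in 4 of 17 members (23.5%, beside 7.27% of all genes), led by Tra2b at 577 and 184 CPM, and none was lower.

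Cell cycle genes showed no common direction, with 3 of 17 higher (17.6%) and none lower, beside 7.27% and 5.14% of all genes. Mki67 stood at 28.3 and 26.0 CPM and Top2a at 28.3 and 33.7 CPM, and Hmgb2, a chromatin protein, at 554 and 113 CPM. Of 16 histone genes 3 were higher and 3 lower (18.8% each, beside the same shares of all genes). Hist1h1c, the linker histone that is also made outside S phase, stood at 332 and 56.5 CPM, and Hist1h4h at 4.46 and 22.5 CPM. Zinc finger genes, a group taken up after their values had been seen, were lower in 50 of 200 members (25%, beside 5.14% of all genes) and higher in 8, with a median of -1.04. They had a median of 234 UMIs, and the 5.14% was not matched to that level. Over all genes the share lower was 9.05% with at least 20 UMIs and 2.44% with at least 500 UMIs. Zfp36 and Zfp36l1, of the mRNA decay list, were among the 8.

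Other sham cells also held UMIs of the response genes, with values that free RNA can add to. In border macrophages (115 standard and 84 ActD cells), 58 of 91 response members were past 2-fold higher and none lower, beside 7.67% and 3.60% of all genes compared in these cells, and the lists summed to 59406 and 19443 CPM. Atf3 stood at 2082 and 11.5 CPM in them. In neutrophils (476 and 81 cells) 52 of 130 members were higher and 6 lower, beside 8.44% and 9.34% of all genes, with 22799.6 and 13657 CPM. In B cells (676 and 59 cells) 54 of 103 were higher and 2 lower, beside 7.24% and 2.74% of all genes, with 22602 and 17525 CPM. Atf3 and Ccl4 stood at 113 CPM each in standard B cells and at 187 and 248 CPM in standard neutrophils. These values were far below the microglial 4645 and 7309 CPM. P2ry12, which B cells should lack, was found in 3.39% of thinned standard B cells. The B cells and neutrophils were chosen with under 2 of the 9 rule markers, P2ry12 among them. This share was thus held low by the choice of cells. How much of the neutrophil and B cell values came from free RNA was not tested, and no expression is read from them.

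Set beside the injured libraries, which were also dissociated with ActD, the standard sham microglia had the highest response sum. The 9 lists summed to 24174 CPM at 3 dpi (157 cells kept by the same rule) and 14948 CPM at 14 dpi (263 cells kept). Against these stood 15534 CPM in ActD sham and 80677 CPM in standard sham. An S100a8 UMI left out 1458 of 1624 cells with at least 4 markers at 3 dpi and 5153 of 5426 at 14 dpi. The cells left out by the 3 genes were deeper, with medians of 25455 and 12780 UMIs against 10974 and 6456 in the cells kept. The values after injury thus describe the few cells kept, and whether they hold for those left out was not tested. Klf2 stood at 236 CPM at 3 dpi and 30.2 CPM at 14 dpi, and Nfkbia at 523 and 177 CPM, all below the standard sham values. Cxcl2 was higher at 3 dpi, with 532 CPM at 3 dpi against 379.6 CPM in standard sham. Ptgs2 stood at 44.3 CPM at 3 dpi and 42.3 CPM in standard sham. Spp1, by contrast, stood at 19680.5 CPM at 3 dpi and 2562 CPM at 14 dpi and at 29.7 CPM in standard sham, and the damage-associated list summed to 66489.5 and 89383 CPM after injury and to 14762 CPM in standard sham. Of the cells the rule kept, 67 of 157 at 3 dpi and 10 of 263 at 14 dpi held at least 3 border macrophage markers, against 1 of 788 in standard sham, and the homeostatic list stood at 39527 and 90224 CPM against 108837 CPM. The border macrophage and monocyte list stood at 1536 CPM at 3 dpi and 58.3 CPM in standard sham, and its part in the values after injury was not tested.

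Gene structure differed between the genes past 2-fold and the rest. Among protein-coding genes, 28 of 136 whose longest transcript model in GENCODE M21 had a single exon were past 2-fold higher (20.6%), 17.3% of 248 genes with 2 exons and 3.07% of 1207 genes with 21 or more. By gene span, the share was 16.9% of 189 genes up to 2000 bp and 3.39% of 1003 genes over 100000 bp. Genes past 2-fold lower were also more frequent among genes of few exons, at 11% of single-exon genes and 1.82% of those with 21 or more. With at least 500 UMIs the shares higher were 27.3% of 55 single-exon genes and 2.40% of 624 genes with 21 or more exons, and the shares lower 3.64% and 1.44%.

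**Figure D5:**
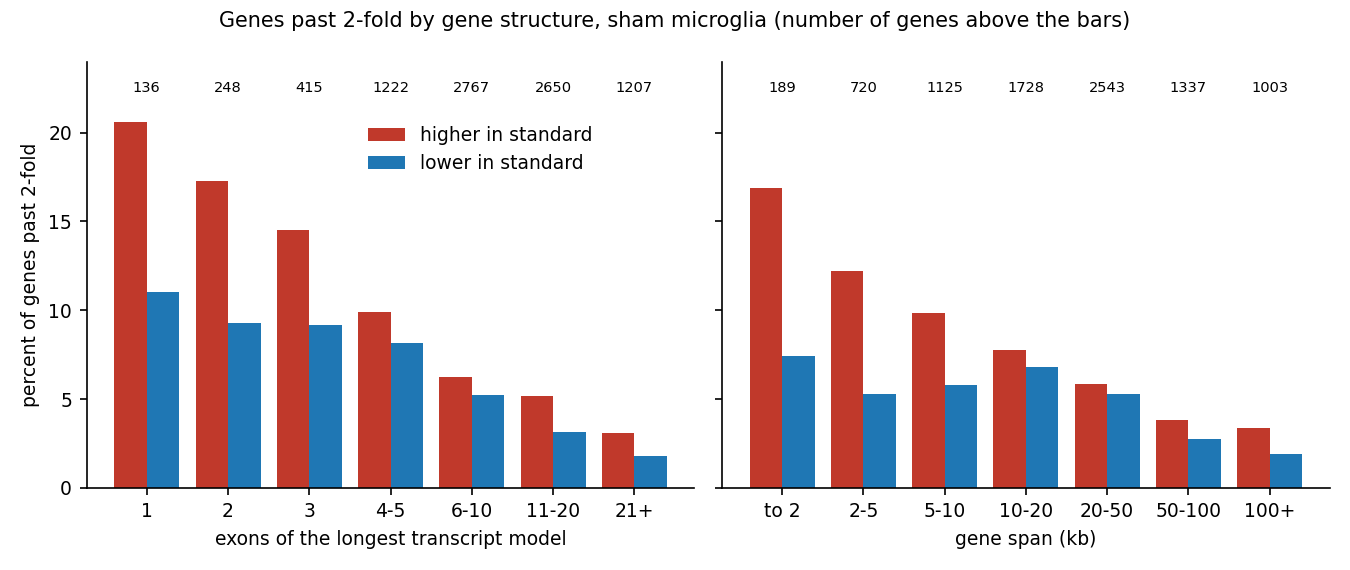
Percent of protein-coding genes with at least 100 UMIs that were past 2-fold higher (red) or lower (blue) in standard over ActD microglia, by the exon number of the longest transcript model (left) and by gene span in kb (right), with the number of genes above the bars. The share that was higher decreases from 20.6% at 1 exon to 3.07% at 21 or more exons.

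Promoter motifs were counted in the 250 bases before and 50 bases after the RefSeq start, as matches of letters on both strands, except TATAAA, which was searched on the strand of the gene in the last 50 bases before the start. The kappaB motif was found in 14.4% of the genes past 2-fold higher, in 21% of the response genes that were higher, in 6.24% of all genes tested and in 5.14% of all promoters. TGACGTCA was found in 7.42%, 9.88%, 3.76% and 2.03% of the same sets. TATAAA was found in 5.77%, 9.88%, 1.49% and 3.15%, and in 13% of the genes past 16-fold. TGANTCA, a loose form of the AP-1 site that allows any middle base, was found in 8.45%, 19.8%, 5.76% and 8.97%. The CArG box, the site of SRF, which Zfp36 holds 58 to 49 bases before its start, was found in 2.68%, 2.47%, 1.63% and 1.81%. Of the genes past 2-fold lower, 3.93% held the kappaB motif, 1.69% TGACGTCA, 2.25% TATAAA, 8.15% TGANTCA and 0.843% the CArG box. TGANTCA was also found in 25.9% of the interferon list (7 of 27 genes), so it was not particular to the higher genes. Of all response genes, higher or not, 18.5% held the kappaB motif, 5.93% TGACGTCA, 8.89% TATAAA, 17.8% TGANTCA and 1.48% the CArG box. The ISRE core was found in 59.3% of 27 interferon genes with a promoter sequence, in 10.1% of the genes past 2-fold lower and in 3.99% of the genes tested. RefSeq promoters were matched by symbol for 7001 of the 8790 genes, and each share is of the genes with a promoter sequence. These were 485 of the 639 higher genes, 69 of the 92 past 16-fold and 356 of the 452 lower. Of the 173 response genes 135 had a sequence, and of the 105 that were higher 81. The CArG box share of these 81 genes came from 2 genes. A match describes letters in a window and does not show that a factor binds there.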

How the data were processed

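CD45+ cells of the mouse spinal cord were profiled by the authors with a droplet 3′ RNA-seq method. For each of the 4 libraries the authors deposited a matrix of UMI counts, made with Cell Ranger on mm10 per the submitters' processing notes, and the matrices still held cells outside the study's filters. UMI counts of the chosen microglia were summed per sham library, scaled to CPM, and expressed as log2 ratios with exact conditional intervals (scipy 1.17.1, 95%). A count of 0 was set to 3 counts. Genes with 100 or more UMIs over both libraries were called past 2-fold relative to the median gene. No test was made, since each protocol had 1 library. The scripts were tested on simulated data. Members, lists and comparisons were chosen with earlier results of these data known.

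Genes named were the 15 largest and 15 smallest ratios and the 15 largest CPM differences each way (outside the Fos, Jun, Egr and Ier families, at least 200 UMIs), and in each list up to 5 members by ratio and 3 by CPM. The ends by ratio left out sex-linked, mitochondrial, haemoglobin, immunoglobulin, T cell receptor and ribosomal genes. Further list members were named after their values were seen, as contrasts. Alternatives were plain CPM, edgeR 4.0.16 TMM factors, other UMI, marker, gene and mitochondrial limits, other exclusions, Scrublet (scanpy 1.11.5), thinning to 2000 UMIs, each sex alone, cycling cells left out and, added after the data were seen, cells with 3 of 7 border macrophage markers left out. Identifiers were matched to GENCODE M21 (30934 of 31053). Results for a few genes are not reported here.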

Additional observations from a re-analysis of the deposited data

Results flagged for a closer look

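The interferon list differed between the sexes in the comparison of protocols, a difference that was not tested. Relative to the median gene, the median of its members, standard over ActD, was 0.22 in male microglia (243 standard and 361 ActD cells) and -2.78 in female microglia (326 and 394 cells). The opposite signs singled it out, with 1 library per protocol.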

How the results depend on the processing

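The limits of these values lie in 1 library per protocol and in the choice of cells. No paired analysis was possible because there was 1 library per protocol. Of 2117 values of named genes past 2-fold under 16 alternatives, 2034 stayed past 2-fold in the same direction and 12 turned. Counted by gene, 102 of the 135 named genes past 2-fold stayed so under every alternative with a value. Many of these genes were named for their large ratios, and the alternatives shared most of their cells. The causes of the shifts below were not tested, except that fewer genes pass a higher UMI minimum and fewer UMIs remain after thinning.

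Genes higher and lower numbered 390 and 1609 on plain CPM, 1021 and 1015 with at least 20 UMIs, 319 and 103 with at least 500 UMIs, 1164 and 694 without the exclusion genes, 323 and 181 with 7 further exclusion genes and 365 and 152 after thinning, and 237 were lower in male cells. The genes compared in these settings numbered 8790, 11212, 4228, 11127, 4215 and 4564 in turn, and 6161 in male cells. The 7 further genes left 143 and 262 cells. With them 68 of 99 response members were past 2-fold higher and 12 of 19 interferon members lower, beside 7.66% and 4.29% of all genes. In male cells no interferon member was past 2-fold lower (3 of 19 were higher), and the list's median was 0.22 relative to the median gene. On the same scale the male log2 ratio of Zbp1 was 0.08 and that of Usp18 0.69. These came from 7 and 19 UMIs of Zbp1 and 14 and 25 UMIs of Usp18, under the minimum of 100 UMIs. Zbp1 stood at 4.08 CPM in standard and 5.42 CPM in ActD male cells. Of the identity lists 5 of 63 members were lower on plain CPM and 5 of 59 in male cells, against 2 of 63. The shares of all genes were 18.3%, 3.85% and 5.14%. With at least 500 UMIs, with at least 6 markers and after thinning 1 member was lower, beside 2.44%, 4.65% and 3.33% of all genes. Cell cycle and histone members lower were 3 of 33, and 12 of 33 on plain CPM, beside 5.14% and 18.3% of all genes. They were 10 with at least 20 UMIs, 0 with at least 500 UMIs and 9 without Scrublet doublets, beside 9.05%, 2.44% and 5.08%. In male cells 1 of 12 was lower, in female cells 1 of 22 and after thinning 1, beside 3.85%, 5.08% and 3.33%.

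The microglial share of the standard library was 12.5% with at least 6 markers, 63.1% without exclusion and 2.49% with the further genes, against 13.7%, and that of the ActD library 83.3% and 11.9% in the last 2 settings, against 42.8%. The values that follow are log2 ratios relative to the median gene. Igf1 turned to 0.01 with at least 6 markers. Without exclusion Prss34 turned to 0.92 and F13a1 to 0.21. With the 7 further genes H2-Aa, H2-Ab1 and H2-Eb1 turned to 2.01, 2.28 and 2.30, and the Ube2c log2 ratio to -2.18. Without the cells holding border macrophage markers H2-Aa, H2-Ab1 and H2-Eb1 turned to 2.66, 1.87 and 2.94. The median of the border macrophage list turned to 1.57. Those cells were left out by border macrophage markers, so a fall of that list with ActD followed from the choice of cells.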
